A study of Drosophila mojavensis with 127 samples.

Results

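San Quintin males are the male flies of a Drosophila mojavensis population from San Quintin, Baja California, and the comparison described here is between mated and nonmated males of that population. They were the samples labelled San Quintin and male, reared on either of 2 host cacti, and they made up 16 of the 127 arrays of the series. Arrays of a group that carried the same replicate number were averaged, which left 14 replicates of 123. Mated males reared on pitaya agria (Stenocereus gummosus) had 3 replicates, numbered 1, 3 and 4, against 4 of nonmated males on the same cactus. Mated males reared on organ pipe cactus (Stenocereus thurberi) had 3 replicates, the first of them a pair of arrays, against 4 of nonmated males, the third of them a pair of arrays. All flies were wild type, those of San Quintin came under 1 stock name, and total RNA labelled with Cy3 was hybridised to 1-colour NimbleGen arrays. The labels give neither the tissue, nor the age of the flies, nor the time between mating and RNA extraction. The whole series holds 4 populations, both sexes, both cacti and both mating states, and the other groups enter here as 47 replicates of males of the other 3 populations and 15 of San Quintin females.

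Drosophila mojavensis is a cactophilic fly that feeds and breeds in fermenting tissue of columnar cacti. At mating a Drosophila male transfers sperm together with seminal fluid, whose proteins are made largely in the accessory glands and the ejaculatory duct and act in the female on egg laying, sperm storage and remating. Transcripts of male reproductive glands are therefore commonly followed after mating, when the glands refill. The deposited table names transcripts by FlyBase transcript identifiers alone, and 0 of its 14528 identifiers matched the gene table available for the species (RefSeq assembly ASM1815372v1). No function is given to any transcript below, and at most 2 identifiers in each direction are named for a comparison. In their place transcripts are grouped by sex bias: 2210 transcripts were male-biased (15.2%) and 2856 female-biased (19.7%), which means that they differed between the sexes by 2-fold or more in the other 3 populations at an adjusted p under 0.05, and 9462 belonged to neither class.

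The values are expression on a log2 scale, so that a difference of 1 is a 2-fold difference. Of the 16 arrays, 14 correlated with each other at r = 0.954 to 0.995 across transcripts. A nonmated array on agria, replicate 1, correlated with the other San Quintin male arrays at a mean r of 0.871, and an array of the pair behind mated replicate 1 on organ pipe at 0.919. Both arrays stand apart, and the main counts of calls and the values that move most are also given without these 2. Other counts, such as those by overlap and of calls shared with females, are given with all arrays only. All San Quintin male replicates read as male. A sex index was taken as the average over the 200 transcripts with the strongest male bias less that over the 200 with the strongest female bias; it lay between 4.37 and 4.99 in these males, whereas females of the series lay between -4.91 and -3.28. The tissue could not be checked against markers, since no identifier could be paired with a gene. In whole-sample RNA, fewer cells of a type and less RNA per cell cannot be told apart.

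Most transcripts called for mating were higher in mated males. With the 2 hosts weighted equally, 393 of 14528 transcripts (2.71%) differed between mated and nonmated San Quintin males in limma at a Benjamini-Hochberg adjusted p under 0.05, 367 of them higher in mated males (2.53%) and 26 lower (0.179%). The median size of a called difference was 0.53. Differences of 2-fold or more were found for 23 transcripts higher in mated males (0.158%) and 2 transcripts lower (0.0138%). When the 2 arrays that stand apart were left out, 250 transcripts were called, 247 higher and 3 lower, with 21 higher and 2 lower by 2-fold or more. Of the 367 transcripts called higher, 212 were still called higher then. Of the 23 higher by 2-fold or more with all arrays, 20 were still called higher, 16 of them by 2-fold or more.

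Among transcripts whose mated and nonmated replicates overlapped on neither host, FBtr0175092 and FBtr0169865, both male-biased, had the largest called rises. FBtr0175092 had the largest of all. On agria it stood at 13.34, 13.51 and 13.42 in mated males, against 11.81, 11.41, 11.80 and 11.81 in nonmated males. On organ pipe it stood at 13.10, 13.06 and 13.07 in mated males, against 11.46, 11.81, 11.57 and 11.50 in nonmated males. Every mated replicate lay above every nonmated one on both hosts, and the mated replicates on organ pipe spanned a range far narrower than the distance between the groups. The mean difference was 1.60 ± 0.18 (SE), or 3.04-fold, with an adjusted p of 8.15e-11 in limma. FBtr0169865 stood at 10.90, 10.53 and 10.71 in mated males on agria, against 8.46, 8.84, 9.81 and 9.31 in nonmated males. Its values on organ pipe were 10.35, 10.56 and 10.65 in mated males, against 9.36, 9.40, 9.58 and 9.35 in nonmated males. Groups did not overlap on either host, although the nonmated males on agria varied widely, with an SD of 0.58 (n = 4). FBtr0169865 was higher in mated males by 1.35 ± 0.17 (SE), or 2.55-fold, with an adjusted p of 1.95e-08 in limma.

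Expression of FBtr0167250 and FBtr0163377 fell in mated males. On agria FBtr0167250 stood at 10.82, 11.27 and 10.65 in mated males, against 13.04, 11.92, 11.55 and 11.68 in nonmated males. On organ pipe it stood at 10.28, 10.64 and 10.27 in mated males, against 11.88, 12.27, 12.33 and 12.27 in nonmated males. All mated replicates were below all nonmated ones on both cacti, and the highest nonmated value on agria was that of the array that stands apart. The difference was -1.46 ± 0.20 (SE), or 2.76-fold lower in mated males, with an adjusted p of 1.17e-07 in limma. FBtr0163377 stood at 10.94, 11.12 and 10.53 in mated males on agria, against 13.11, 11.87, 11.73 and 11.60 in nonmated males. On organ pipe its values were 10.23, 10.60 and 10.31 in mated males, against 11.78, 12.10, 12.22 and 12.21 in nonmated males. This transcript too had groups that did not overlap, and it differed by -1.46 ± 0.20 (SE), or 2.74-fold lower in mated males, with an adjusted p of 1.17e-07 in limma. The pair of transcripts moved almost as one: across the 14 San Quintin male replicates, which include the mating difference, their values correlated at r = 0.993, and over all 123 replicates, with group means removed, at r = 0.938. Whether the probes of both read shared sequence was not tested. FBtr0167250 differed by -1.26 and FBtr0163377 by -1.25 without the 2 arrays that stand apart, both still called.

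**Figure D1:**
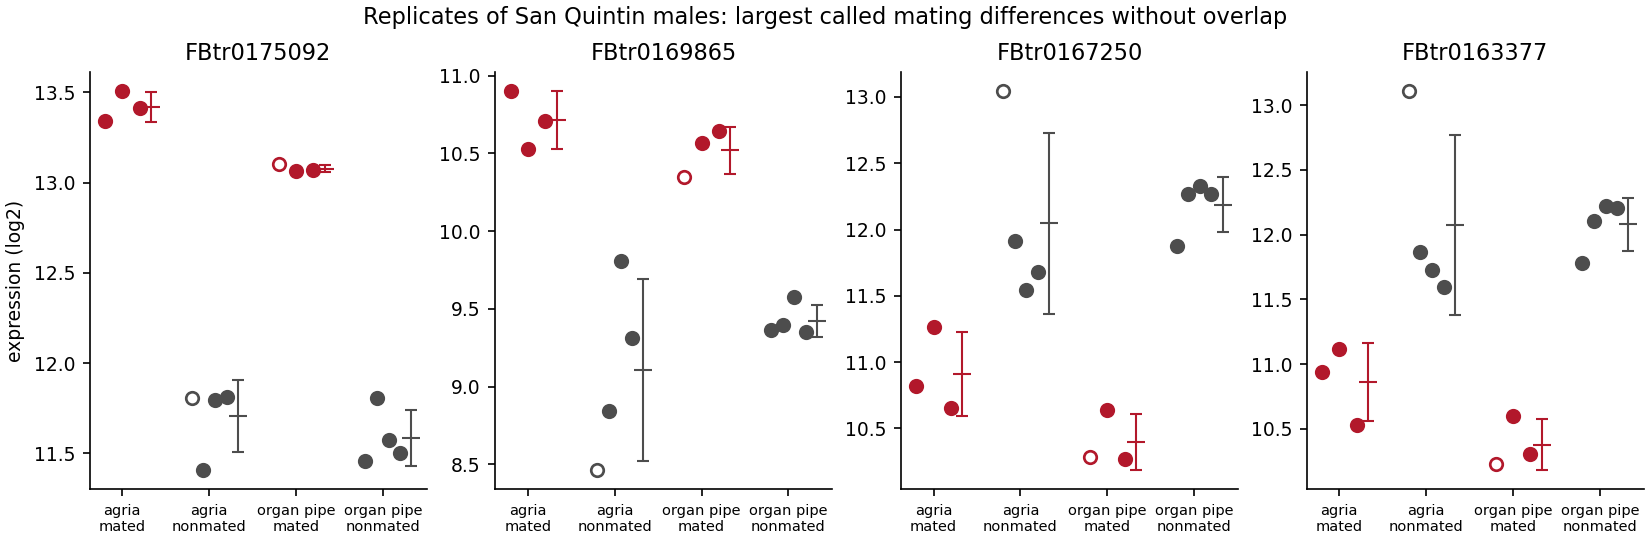
Expression (log2) of the 4 transcripts with the largest called mating differences, 2 in each direction, among those without overlap on either host, in each replicate of San Quintin males by host and mating status. Points are replicates, open points are the replicates that hold an array that stands apart, and the bars are the mean and SD. Mated replicates of FBtr0175092 and FBtr0169865 lie above all nonmated ones of their host, and those of FBtr0167250 and FBtr0163377 below them.

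The 23 transcripts raised by 2-fold or more were selected by this comparison, so their size in San Quintin males is a description. They differed by 1.01 to 1.60, with a median of 1.09. Male-biased transcripts made up 13 of the 23 (56.5%), 4 were female-biased and 6 belonged to neither class, whereas male-biased transcripts were 2210 of the 14528 tested. Mated and nonmated replicates did not overlap on either host in 15 of the 23, and over all transcripts mated replicates were higher without overlap on both hosts in 1.29% and lower in 0.441%. Among all 367 transcripts called higher, 135 had no overlap on either host, 66 were male-biased (18.0%), 55 female-biased and 246 neither. Of the 26 called lower, 6 were male-biased, 1 female-biased and 19 neither.

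Male-biased transcripts as a class did not follow the 13. Over all 2210 the median mating difference in San Quintin males was -0.16, and 78.3% of them were below 0, against a median of 0.03 and 44.8% below 0 over all transcripts. The class median was -0.12 on agria and -0.21 on organ pipe. It kept its sign after a further quantile normalization (-0.16), after a shift of the arrays to the same median (-0.18) and without the 2 arrays that stand apart (-0.16). In males of the other 3 populations the median of the class was -0.06, with 70.0% of it below 0, against 50.4% of all transcripts. Those values include 2 male arrays of the other populations that lay between the sexes on the sex index, described below. On their own, 66 members were called higher in mated males and 6 lower, which is 2.99% and 0.271% of the class, against 2.53% and 0.179% of all transcripts. Without the 2 arrays that stand apart, 61 were called higher and 0 lower, or 2.76% and 0%, against 1.70% and 0.0206% of all transcripts. The sex index, which subtracts female-biased from male-biased transcripts and so follows both classes, averaged 4.64 ± 0.15 in mated males (SD, n = 6) and 4.81 ± 0.12 in nonmated males (SD, n = 8), a difference of -0.16 with the hosts weighted equally. In a two-sided exact permutation test of mating labels within hosts, its p was 0.0441, and 0.132 after adjustment over the 3 array measures tested. Leaving out the 2 arrays that stand apart, the difference was -0.17 with an adjusted p of 0.0129, and without nonmated replicate 1 on agria alone it was -0.20 with 0.00857. The other array measures, the median and the SD of an array's values, differed by 0.02 (p = 0.469) and -0.03 (p = 0.322) in the same exact test. By host, the sex index differed by -0.09 on agria and -0.24 on organ pipe, and the SD by 0.03 on agria and -0.09 on organ pipe. Whether these 2 measures are related was not tested. The smallest p that the 1225 exchanges allow is 0.000816.

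Female-biased transcripts had a median mating difference of 0.05 in San Quintin males with all arrays, 0.06 on agria and 0.00 on organ pipe. With a further quantile normalization the value on organ pipe was -0.05, so the direction of this class on organ pipe was not settled. Of the 2856 female-biased transcripts 55 rose and 1 fell, or 1.93% and 0.0350%, against 2.53% and 0.179% of all transcripts. Without the 2 arrays that stand apart, 27 rose and 0 fell, or 0.945% and 0%, against 1.70% and 0.0206% of all transcripts.

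Each host gave a different number of calls in a fit that pooled the spread over all 32 groups, with a median SE of 0.21 on each. Such counts make no allowance for a spread that differs between hosts. Counts from a fit to San Quintin males only are given in the last section. On agria 669 transcripts were called (4.6%), 635 higher (4.37%) and 34 lower (0.234%) in mated males, 97 (0.668%) and 7 (0.0482%) of them by 2-fold or more. On organ pipe 44 were called (0.303%), 42 higher (0.289%) and 2 lower (0.0138%), 14 (0.0964%) and 2 (0.0138%) of them by 2-fold or more, and 24 transcripts were called higher on both. Counted by overlap alone, mated replicates were all higher than nonmated ones for 772 transcripts on agria (5.31%) and 1118 on organ pipe (7.7%), and all lower for 281 on agria (1.93%) and 1950 on organ pipe (13.4%). The agria count moved most with the 2 arrays that stand apart. With both left out, 86 transcripts were called on agria, all 86 of them higher, against 43 on organ pipe, 41 higher and 2 lower, with 31 called higher on both. All 86 were then also positive on organ pipe, and all 41 were also positive on agria, while 53.3% of all transcripts were positive on organ pipe and 47.5% on agria. With all arrays, 488 of the 635 higher on agria (76.9%) were positive on organ pipe, where 50.0% of all transcripts were, and 36 of the 42 higher on organ pipe (85.7%) were positive on agria, where 46.2% were. Mating differences on the 2 hosts, which share no array, correlated at r = -0.112 across the 14528 transcripts with all arrays and at r = 0.275 without the 2 arrays. Transcripts are not independent replicates, and these values describe the libraries.

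**Figure D2:**
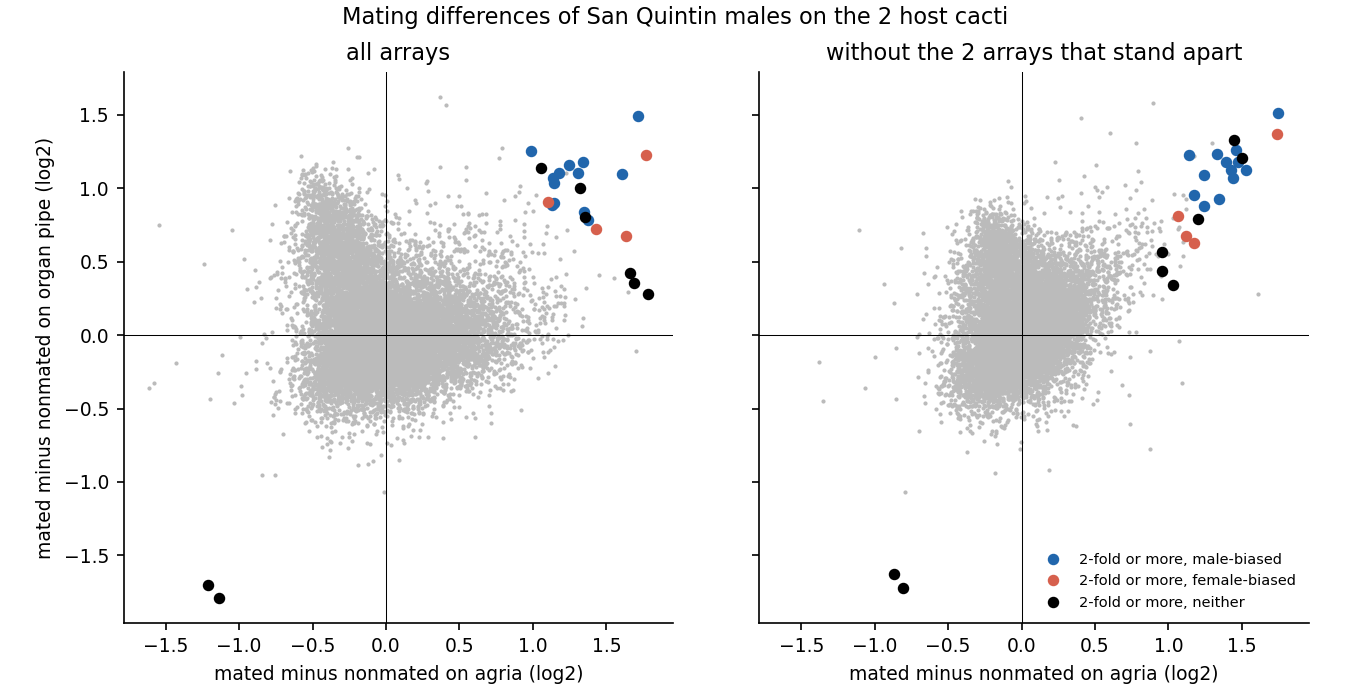
Mating difference (mated minus nonmated, log2) on organ pipe against that on agria for each transcript in San Quintin males, with all arrays and without the 2 arrays that stand apart. Grey points are all transcripts and coloured points the 23 higher and 2 lower by 2-fold or more over both hosts, coloured by sex class. The coloured points lie in the upper right and lower left quadrants of both panels, while the grey cloud changes shape when the 2 arrays are left out.

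On agria the largest called differences without overlap were those of FBtr0175092 and FBtr0167084 among raised transcripts. FBtr0175092 differed by 1.71 ± 0.25 (SE; adjusted p = 2.69e-06 in limma). FBtr0167084 stood at 10.91, 10.69 and 10.86 in mated males on agria, against 7.04, 8.70, 10.52 and 10.37 in nonmated males. Its mated replicates were tightly grouped, and the nonmated ones were spread over more than 3 log2 units with the array that stands apart lowest. The difference of FBtr0167084 on agria was 1.66 ± 0.42 (SE; adjusted p = 0.0091 in limma), and 0.96 without the 2 arrays (adjusted p = 0.629). FBtr0163318 had 11.01, 10.75 and 10.14 in mated males, against 12.96, 12.05, 12.39 and 11.60 in nonmated males on agria. FBtr0168663 had 9.52, 9.69 and 9.18 in mated males, against 11.72, 10.68, 11.45 and 10.31 in nonmated males on agria. In both, the mated replicates were lower without overlap and the array that stands apart was again the most extreme. They differed by -1.62 ± 0.50 and -1.58 ± 0.40 (SE; adjusted p = 0.0425 and 0.00911 in limma), and neither was called without the 2 arrays, at -1.38 (adjusted p = 0.495) and -1.35 (adjusted p = 0.187).

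On organ pipe FBtr0168069 stood at 10.68, 10.67 and 10.88 in mated males, against 9.06, 9.31, 9.41 and 8.72 in nonmated males. The groups were more than 1 log2 unit apart, and the difference was 1.62 ± 0.26 (SE; adjusted p = 0.000105 in limma). On agria the same transcript had 9.91, 10.01 and 10.32 in mated males, against 11.30, 9.07, 9.12 and 9.38 in nonmated males. There the array that stands apart lay above all mated replicates and the other nonmated replicates below all of them, and with all arrays the difference on agria was 0.37 ± 0.26 (SE; adjusted p = 0.474 in limma). Without the 2 arrays it was 0.90 ± 0.24 (SE; adjusted p = 0.0501). FBtr0163290 had 11.97, 11.56 and 11.01 in mated males on organ pipe, against 9.93, 9.48, 10.08 and 10.28 in nonmated males. It did not overlap between groups and differed by 1.57 ± 0.37 (SE; adjusted p = 0.0343 in limma), but by 1.38 with an adjusted p of 0.0672 without the 2 arrays. Both transcripts that fell on organ pipe were FBtr0167250, by -1.79 ± 0.28, and FBtr0163377, by -1.70 ± 0.28 (SE; adjusted p = 9.86e-05 and 0.000105 in limma).

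The 23 risers were selected on the mean of both hosts, so that some entered mainly through a high value on agria, and their difference between hosts is a description. Over the 23 transcripts raised by 2-fold or more the difference on organ pipe ran from 0.28 to 1.49 with a median of 1.00, and on agria from 0.99 to 1.79 with a median of 1.34. It was smaller on organ pipe in 21 of the 23, and in 22 without the 2 arrays. The test of the host difference itself did not reach the threshold for any transcript. For the mating difference on organ pipe minus that on agria, limma called 0 of 14528 transcripts (0%), with 2664 at an unadjusted p under 0.05 and a smallest adjusted p of 0.207; without the 2 arrays, 329 reached an unadjusted p under 0.05. Leaving out nonmated replicate 3 or 4 on agria or mated replicate 3 on organ pipe gave 41, 350 or 2 calls. FBtr0164164 had the smallest p among positive differences. On organ pipe it stood at 7.71, 8.99 and 7.23 in mated males, against 6.70, 7.24, 7.34 and 7.14 in nonmated males, and on agria at 7.00, 7.57 and 7.38 in mated males, against 7.96, 7.93, 7.71 and 7.66 in nonmated males. Its organ pipe groups overlapped, its agria groups did not, and the host difference was 1.37 ± 0.31 (SE; adjusted p = 0.207). FBtr0170385 gave 1.13 ± 0.27, FBtr0173470 -0.92 ± 0.22 and FBtr0165634 -0.65 ± 0.17 (SE; adjusted p = 0.207 for each in limma). FBtr0164164 and FBtr0170385 were among the dimmest 25% of transcripts, which the filter on dim transcripts left out. Without the 2 arrays the host difference was 1.20 for FBtr0164164, 0.86 for FBtr0170385, -0.47 for FBtr0173470 and -0.29 for FBtr0165634, so that the negative ones shrank most.

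The number of calls depended on single replicates, above all on the nonmated males on agria. For both hosts together, leaving out nonmated replicate 3 on agria gave 1265 calls and replicate 4 gave 869, whereas leaving out replicate 1 gave 225 and replicate 2 gave 257. Leaving out mated replicates 1 or 4 on agria gave 210 or 258 calls, and mated replicates 2 or 3 on organ pipe 227 or 214. Calls on agria followed the same replicates. The count there was 1830 without nonmated replicate 3, 1723 without nonmated replicate 4, 90 without nonmated replicate 1, 148, 436 and 198 without mated replicates 1, 3 and 4. On organ pipe alone it was 24, 5 and 20 without mated replicates 1, 2 and 3, and 8, 20 and 18 without nonmated replicates 1, 2 and 4. The number of transcripts higher by 2-fold or more over both hosts moved less, between 15 and 33. FBtr0175092, FBtr0169865, FBtr0167250 and FBtr0163377 were called for both hosts together with each of these replicates left out.

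**Figure D3:**
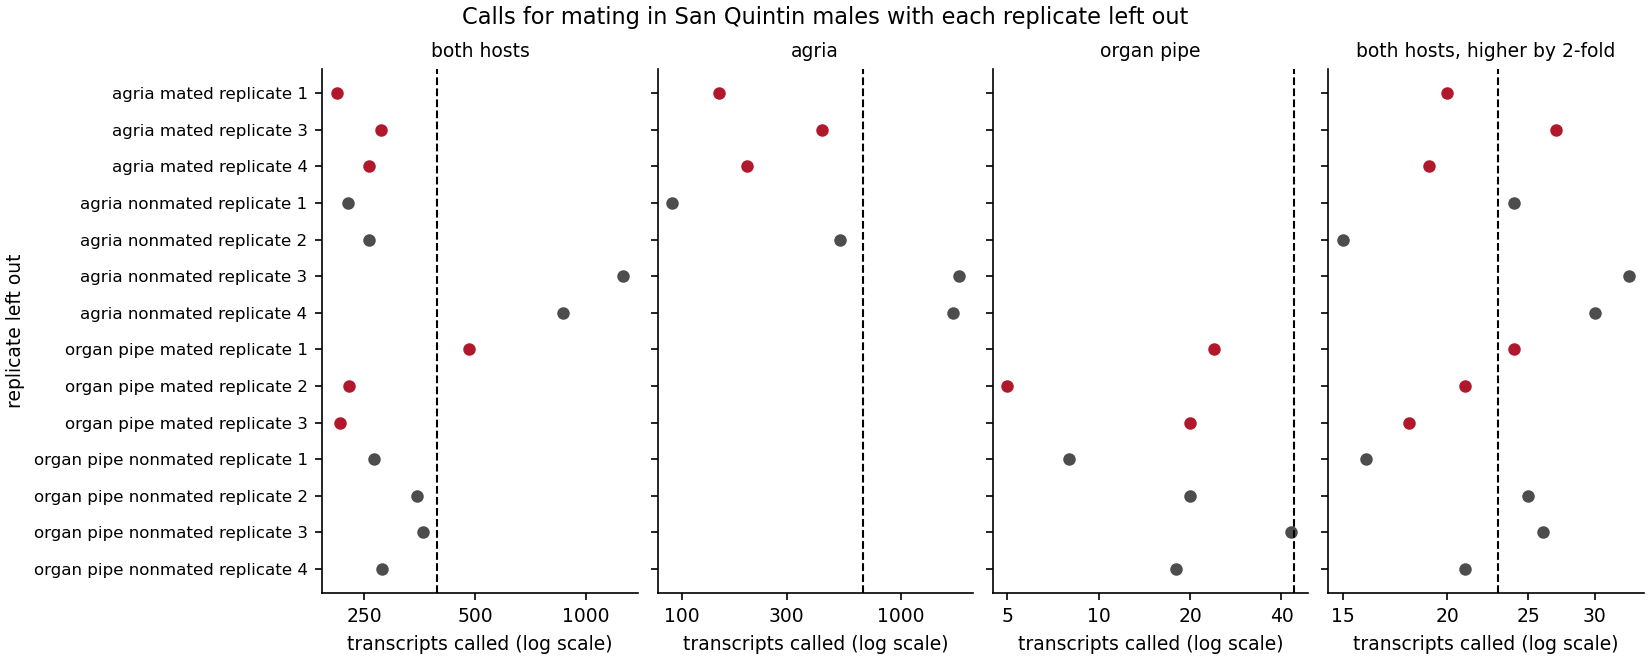
Number of transcripts called for mating in San Quintin males (log axis) with each San Quintin male replicate left out, for both hosts, for each host, and for differences of 2-fold or more upward. Red points leave out a mated and grey points a nonmated replicate; the dashed line is the count with all replicates. The counts for both hosts and for agria are highest without nonmated replicates 3 and 4 on agria, and the count of larger differences stays between 15 and 33.

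Calls in males of the other 3 populations were shared with San Quintin males in both directions, in number mostly upward. There 795 transcripts were called higher (5.47%) and 266 lower (1.83%). Of the 367 called higher in San Quintin males, 179 were among the 795, which is 48.8% of the San Quintin list and 22.5% of the other. The transcripts shared upward were 182 of 247, or 73.7%, without the 2 arrays that stand apart. Of the 26 called lower in San Quintin males, 6 were among the 266, and 2 of the 3 called lower without those arrays. Of the 266 called lower in the other males, 6 were called lower and 2 higher in San Quintin males. With the hosts weighted equally, 54.1% were positive there and the median difference was 0.02, against 55.2% and 0.03 over all transcripts. On agria 23.7% were positive, with a median of -0.20, against 46.2% of all transcripts. On organ pipe 58.6% were positive, with a median of 0.07, against 50.0%. Without the 2 arrays that stand apart, 25.9% were positive on agria and 55.3% on organ pipe, against 47.5% and 53.3%. Of the 23 raised by 2-fold or more, 19 were called higher in the other males, 16 in Punta Onah (4.3% of all transcripts), 16 in Punta Prieta (1.05%) and 13 in Organ Pipe National Monument (2.83%). All 3 populations called 11 of the 23, and none of them called 5. Without the 2 San Quintin arrays that stand apart, those 5 differed by 0.69 to 0.90 in San Quintin males, all below 2-fold. In all, 49 transcripts, those 11 among them, were called higher in each of the other 3 populations. San Quintin differences did not choose this list, although San Quintin arrays share in the estimate of the spread behind its calls. All 49 were positive in San Quintin males and 43 were called higher there, 45 without the 2 arrays. An array of mated males of Organ Pipe National Monument on agria had a sex index of 1.04 and an array of nonmated males of Punta Prieta on organ pipe 2.77, both between the sexes. Without these arrays the counts shared with the other males were 174 of 367 and 19 of 23. Organ Pipe National Monument males then had 170 transcripts called higher (1.17%) instead of 411, and 15 of the 23 were among them, against 18 of the 23 in Punta Prieta and 16 in Punta Onah males. The counts of 11, 5 and 49 above were not redone without these arrays.

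The raised transcripts differed in how widely they were shared. FBtr0175092 differed by 1.88 ± 0.16 in Punta Onah males, 1.43 ± 0.16 in Organ Pipe National Monument males and 1.64 ± 0.17 in Punta Prieta males (SE), each called. FBtr0169865 differed by 0.78 ± 0.16 in Punta Onah and 1.27 ± 0.17 in Punta Prieta males, both called, and by 0.22 ± 0.16 in Organ Pipe National Monument males (SE; adjusted p = 0.459). The raised transcripts were thus called in all 3 other populations in the case of FBtr0175092 and in 2 of them in the case of FBtr0169865. FBtr0167250 differed by -0.88 ± 0.19 in Punta Prieta males and -0.87 ± 0.18 in males of Organ Pipe National Monument, both called, and by -0.07 ± 0.18 in Punta Onah males (SE; adjusted p = 0.859). FBtr0163377 likewise differed by -0.86 ± 0.18 and -0.78 ± 0.19 in males of Organ Pipe National Monument and Punta Prieta, both called, and by -0.32 ± 0.18 in Punta Onah males (SE; adjusted p = 0.297). Over the 23 risers the median difference was 0.88 in Punta Onah, 0.61 in Organ Pipe National Monument males and 1.06 in Punta Prieta males, where all 23 were positive. All values given here for males of Organ Pipe National Monument and Punta Prieta include the arrays that lay between the sexes. They were not recomputed without those arrays.

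**Figure D4:**
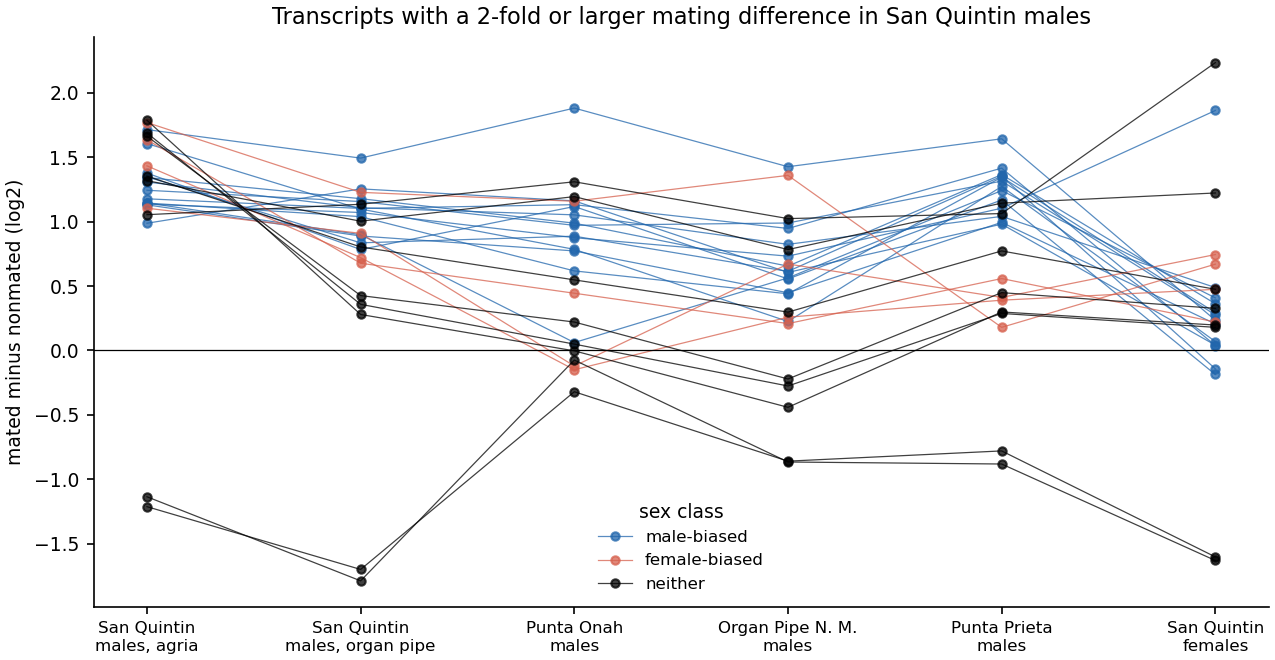
Mating difference (mated minus nonmated, log2) of the 23 transcripts higher and 2 lower by 2-fold or more in San Quintin males, on each host, in males of the other 3 populations and in San Quintin females. Each line is a transcript, coloured by its sex class. All arrays are used, those of the other populations that lay between the sexes among them. Most male-biased lines stay well above 0 in all males and drop in females, and the 2 falling transcripts lie lowest in San Quintin males and females.

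The difference between San Quintin males and the other males was tested directly, as the San Quintin mating difference minus the mean of the other 3. It was called for 14 transcripts (0.0964%), 14 higher (0.0964%) and 0 lower (0%), with 2129 at an unadjusted p under 0.05 in limma. These 14 were selected by this test, so their sizes are a description. In these 14 the mating difference ran from 0.35 to 1.08 in San Quintin males, with a median of 0.62, and from -0.41 to 0.32 in the other males, with a median of -0.09. FBtr0170886 had 10.41, 10.14 and 10.18 in mated males on agria, against 9.51, 9.07, 10.05 and 9.92 in nonmated males, and 10.39, 10.55 and 10.40 in mated males on organ pipe, against 9.64, 10.06, 10.14 and 9.94 in nonmated males. As averaged, its groups overlapped on neither host. Mated replicate 1 on organ pipe joined 10.92, from the array that stands apart, and 9.87. With 9.87 alone the groups overlapped on organ pipe. The mating difference of FBtr0170886 was 0.55 in San Quintin males and -0.08 in the other males. These differ by 0.64 ± 0.13 (SE; adjusted p = 0.0132 in limma), and by 0.53 without the 2 arrays that stand apart. FBtr0167865, a female-biased transcript, differed by 0.63 in San Quintin males and -0.26 in the other males, of which Punta Onah alone had -0.81, and the difference was 0.89 ± 0.18 (SE; adjusted p = 0.0132 in limma), or 0.81 without the 2 arrays. Groups of FBtr0167865 overlapped on agria, with 9.90, 10.12 and 9.67 in mated males, against 9.27, 8.69, 9.84 and 9.55 in nonmated males, but not on organ pipe. No transcript was called lower; the smallest p-values in that direction belonged to FBtr0172299, at -0.44 ± 0.10 (adjusted p = 0.0509), and FBtr0161511, at -0.47 ± 0.12 (adjusted p = 0.0573). With the 2 San Quintin arrays that stand apart left out, 0 transcripts were called in limma, with 1332 at an unadjusted p under 0.05 and a smallest adjusted p of 0.342. Without the 2 arrays of the other populations that lay between the sexes, 53 were called, 42 higher and 11 lower. With single San Quintin male replicates left out, the count ran from 0 calls in limma, without mated replicate 1 or nonmated replicate 2 on agria or without mated replicate 2 or nonmated replicate 1 on organ pipe, to 328 and 792 without nonmated replicates 4 and 3 on agria. It was 4, 9, 6, 5 and 24 without mated replicates 3 and 4 and nonmated replicate 1 on agria and mated replicate 3 and nonmated replicate 3 on organ pipe.

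San Quintin females shared few of the male calls. In them 297 transcripts were called higher (2.04%) and 40 lower (0.275%) after mating; 18 were higher in both sexes, which is 4.9% of the male list and 6.06% of the female list, 2 were lower in both, and 0 were called in opposite directions. The 2 lower in both were FBtr0167250, at -1.63 ± 0.19 in females, and FBtr0163377, at -1.60 ± 0.19 (SE; adjusted p = 3.43e-10 and 4.28e-10 in limma). Of the 23 transcripts raised by 2-fold or more in males, 5 were called higher in females, and the median female difference over the 23 was 0.29. FBtr0175092 differed by 0.23 ± 0.17 in females (SE; adjusted p = 0.646), and the male minus female difference was 1.37 ± 0.24 (SE; adjusted p = 0.000215).

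The test of the male minus the female mating difference called 154 transcripts (1.06%), 51 higher (0.351%) and 103 lower (0.709%), 6 (0.0413%) and 68 (0.468%) of them by 2-fold or more. With the 2 arrays left out it called 147, 56 higher and 91 lower. Both lists were selected by this difference, so their medians and calls in San Quintin flies are a description. Among the 51, the median mating difference was 0.54 in males and -0.07 in females, 44 were called higher in San Quintin males and 40 were called higher in the other populations' males. Among the 103, the median was -0.01 in males and 1.23 in females, 96 were called higher in females, and 58 were female-biased. Leaving out nonmated replicate 3 or 4 on agria gave 347 or 258 calls.

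FBtr0171541 had the smallest p among transcripts with a larger difference in males. It stood at 13.99, 13.97 and 14.17 in mated males on agria, against 12.57, 13.22, 13.36 and 13.27 in nonmated males, and at 13.87, 13.93 and 13.87 in mated males on organ pipe, against 13.42, 13.43, 13.26 and 13.31 in nonmated males. Mated males lay above nonmated males on both hosts, whereas the group means in females were 12.44 and 12.48 in mated and 12.55 and 12.56 in nonmated flies on agria and organ pipe. The mating difference was 0.74 ± 0.08 in males and -0.10 ± 0.08 in females, 0.84 ± 0.11 apart (SE; adjusted p = 4.02e-07 in limma). FBtr0164125 differed by 0.63 ± 0.09 in males and -0.14 ± 0.08 in females, 0.77 ± 0.12 apart (SE; adjusted p = 1.21e-05). In the opposite direction, FBtr0167010 stood between 8.17 and 9.14 in all San Quintin male replicates. Its group means in females were 12.86 and 13.13 in mated flies on agria and organ pipe, against 11.45 and 10.89 in nonmated flies. The nonmated female replicates on organ pipe varied widely, at 11.46, 11.52, 9.87 and 10.72. Replicate 3 among them came from the array with the lowest median of the series, 10.15. Female arrays were not screened for standing apart, but the call was kept in each of 33 fits with replicates left out. Mated females were higher on both hosts, and the male groups overlapped. This female-biased transcript differed by -0.15 ± 0.19 in males and 1.82 ± 0.19 in females, -1.98 ± 0.27 apart (SE; adjusted p = 4.02e-07). FBtr0164309, which is male-biased, differed by -0.07 ± 0.12 in males and 1.03 ± 0.12 in females, -1.10 ± 0.17 apart (SE; adjusted p = 9.41e-06). Its male replicates stood between 13.11 and 13.54, above all San Quintin females.

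**Figure D5:**
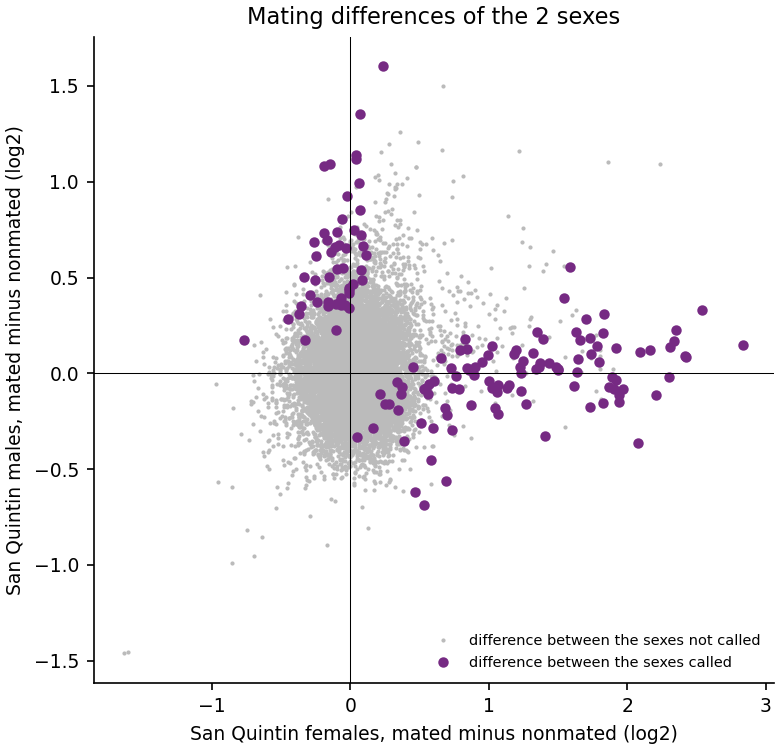
Mating difference (mated minus nonmated, log2) in San Quintin males against that in San Quintin females for each transcript. Purple points are the 154 transcripts whose difference between the sexes was called, grey points all others. One group of purple points lies high on the vertical axis near 0 in females and a larger one extends to the right near 0 in males, and the pair at the lower left, FBtr0167250 and FBtr0163377, fell in both sexes.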

How the data were processed

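Total RNA was measured on 1-colour NimbleGen arrays. The values are log2 expression per transcript as deposited, made by the authors with RMA per the submitters' processing notes; version, annotation and slide positions are not given in the sources used here, and scanner files were not used, so signal over background is unknown. The number of arrays limits precision. Group means (32 groups) were estimated with limma 3.58.1 in R 4.3.3 (91 residual and 4.67 prior degrees of freedom), with Benjamini-Hochberg adjustment over 14528 transcripts, and the method was tested on simulated data. Tests are two-sided. The labels leave unsaid whether replicates were separate cultures; p-values then cover the spread between these samples alone, and that spread may be technical. The groups, lists and rules were chosen with earlier results of these data known. Named transcripts are the 2 per direction with the largest called difference without overlap, or, for differences between hosts, populations or sexes, the smallest p. Lists by gene function could not be run without gene names. Over same-numbered replicates of different San Quintin male groups, residual correlations ran from -0.698 to 0.498 in 18 pairs, so numbers were not taken as pairs. Alternatives were other scaling, a filter on dim transcripts, separate arrays, the replicate block, array weights, a trended robust prior, subset fits, left-out replicates and, chosen after seeing the data, left-out arrays that stand apart or lie between the sexes.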

Additional observations from a re-analysis of the deposited data

Results flagged for a closer look

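In 4 of 48 groups of 4 replicates examined over the named transcripts and the 3 array measures, a single replicate lay far from the rest; chance flags about 1 in 20 groups. FBtr0175092 stood at 11.41 in a nonmated male replicate on agria, with the others at 11.80 to 11.81. FBtr0167250 stood at 11.88 in a nonmated male replicate on organ pipe, with the others at 12.27 to 12.33. FBtr0168069 stood at 11.30 in nonmated replicate 1 on agria, the array that stands apart, with the others at 9.07 to 9.38. FBtr0165634 stood at 13.21 in a nonmated male replicate on organ pipe, with the others at 12.94 to 12.98.

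Between San Quintin males and the other males 14 transcripts differed in their mating difference in limma, among them FBtr0170886 by 0.64 and FBtr0167865 by 0.89, and 0 did without the 2 San Quintin arrays that stand apart. Between San Quintin males and females 154 differed, among them FBtr0171541 by 0.84, FBtr0164125 by 0.77, FBtr0167010 by -1.98 and FBtr0164309 by -1.10.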

How the results depend on the processing

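FBtr0175092, FBtr0169865, FBtr0167250 and FBtr0163377 kept their call for both hosts together under every alternative run, and no tested count or named difference reversed. Of the descriptions, the correlation between hosts was -0.112 with all arrays and 0.275 without the 2 arrays that stand apart, and the female-biased median on organ pipe was 0.00 and, after quantile normalization, -0.05. Over the 653 values of named transcripts under alternatives, a call was lost in 54 and gained in 36. Counts of calls were far less stable, and the causes were not tested. Left-out arrays and subset fits hold fewer samples, and the part this plays was not tested either. With 1 replicate or 1 replicate number left out, the calls ran from 103 to 1265 for both hosts (15 to 33 for 2-fold or more upward), 42 to 1830 on agria, 4 to 100 on organ pipe, 0 to 1120 for mating by host, 0 to 792 for San Quintin minus other males and 25 to 347 for males minus females; the sex index difference ran from -0.20 to -0.11. In fits to San Quintin males only, 76, 17 and 12 transcripts were called for both hosts, agria and organ pipe, and a fit to males only called 0 for San Quintin minus other males. That comparison, with 14 calls, gave 53 after quantile normalization (38 higher and 15 lower, or 71.7% higher), 46 after the shift to one median, 29 without the dimmest transcripts, 168 with array weights, 0 without the 2 San Quintin arrays that stand apart and 53 without the 2 arrays between the sexes. With the replicate number as a block it gave 29 calls, and the block moved no other count of calls by over 1.5 times. Arrays used separately gave 208 calls on organ pipe. Array weights, whose estimation did not converge, gave 605 calls for both hosts, 84 on agria, 8380 on organ pipe, 2335 for mating by host and 1143 for males minus females. Without the 2 arrays that stand apart, 250 transcripts were called for both hosts, 86 on agria, and the sex index difference of -0.17 passed the threshold.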
